A study of Danio rerio with 48 samples.

Results

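The question addressed here is whether perfluorohexanesulfonate (PFHxS) at 25.1 µM shifted gene expression in zebrafish (Danio rerio) larval heads one way at 5 days post fertilisation (dpf) and the other way at 4 dpf. PFHxS, given as its potassium salt, belongs to the per- and polyfluoroalkyl substances (PFAS), long-lived surfactants with a fluorinated chain. The 24 libraries used, of 48 in the series, were chosen by their labels alone and formed 4 groups of 6: 25.1 µM PFHxS at 5 dpf, DMSO at 5 dpf, 25.1 µM PFHxS at 4 dpf and DMSO at 4 dpf. All 4 groups came from the same mixed wild-type stock and all were held in 0.4% DMSO. Each library was polyA RNA from a pool of 15 heads, cut off in front of the swim bladder. Exposure began at 0 dpf with a daily change of medium, so larvae taken at 5 dpf were both older and exposed for longer, and the 2 cannot be told apart. The labels do not say how pools relate to clutches or plates, and p-values therefore reflect only pool-to-pool spread, which may be technical. Libraries are called by the letter in their titles, and libraries of different groups may share a letter.

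The liver secretes most plasma proteins and handles sugars, fats and foreign compounds, the exocrine pancreas makes the digestive enzymes, and the intestine takes up the products. In zebrafish all of these organs become functional over the days before first feeding, and they lie in the anterior trunk around the swim bladder, close to the level at which the heads were removed. In RNA from a pool of tissue, fewer cells of a type and less RNA per cell cannot be told apart.

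The depth of these 24 libraries was 17.1 to 39.2 M counts, with a median of 22.9 M (M for 1000000). The factors of the trimmed mean of M values (TMM), which correct the totals for a few very abundant genes, were 1.15 to 1.46 at 25.1 µM and 1.15 to 1.38 in DMSO at 5 dpf, against 0.643 to 0.877 at 25.1 µM and 0.665 to 0.981 in DMSO at 4 dpf. Markers of the head were abundant: the neuronal gene elavl3 had medians of 185, 234, 155 and 183 counts per 1000000 (CPM), and the cartilage collagen gene col2a1a medians of 18700, 14800, 33900 and 28400 CPM, in 25.1 µM at 5 dpf, DMSO at 5 dpf, 25.1 µM at 4 dpf and DMSO at 4 dpf. Markers of trunk organs were also present in every group, such as the liver gene tfa with medians of 704, 622, 233 and 58.6 CPM in the same order of groups. The insulin gene ins was near 0, with a highest value of 3.48 CPM in any of the 24 libraries.

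No single gene had an exposure effect that differed between the ages at an adjusted p under 0.05. The tested quantity was the log2 fold change of 25.1 µM over DMSO at 5 dpf minus the same at 4 dpf, a negative value meaning a lower effect at 5 dpf. Of 20723 genes tested with edgeR's quasi-likelihood test, 0 (0%) passed, the smallest Benjamini-Hochberg adjusted p being 1. DESeq2 and limma also called 0. At an unadjusted p under 0.05 there were 381 genes (1.84%) by edgeR, 528 by DESeq2 and 369 by limma. Within each age edgeR called 0 genes (0%) as well. At an unadjusted p under 0.05 it found 139 genes (0.671%) at 5 dpf and 540 (2.61%) at 4 dpf, and 5 genes were below that threshold at both ages. The edgeR shares of 1.84%, 0.671% and 2.61% were all below the 5% that this threshold passes where no gene differs. In an alternative edgeR fit on the 24 libraries alone, the 4 dpf share was above 5%, and no gene passed adjustment at 4 dpf. Genes below the unadjusted threshold are not calls of an effect. DESeq2 called 1 gene at 5 dpf, si:dkey-61n16.5, and 0 at 4 dpf, and limma called 0 at both ages.

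Across all genes, the signs of the effects at the 2 ages were split almost evenly. The log2 fold change was above 0 for 52.2% of genes at 5 dpf and for 48.6% at 4 dpf, with medians of 0.01 and -0.01. Opposite signs were found in 10129 genes, of which 4691 (22.6% of those tested) were lower at 5 dpf and higher at 4 dpf and 5438 (26.2%) were higher at 5 dpf and lower at 4 dpf. Pearson's r between both effects over genes, which are not independent replicates, was -0.03 and Spearman's rank correlation 0.02. Of the 381 genes with an unadjusted p under 0.05, 187 were lower at 5 dpf and higher at 4 dpf, 176 the reverse, and 18 had the same sign at both ages. Genes of 4 organ lists (exocrine pancreas enzymes, liver plasma proteins, liver metabolic enzymes, intestine) made up 21 of those 187 genes (11.2%) and 1 of those 176 (0.568%), against 0.84% of all genes tested. These lists were written with earlier results of these data known, so their shares are not independent of the data.

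**Figure D1:**
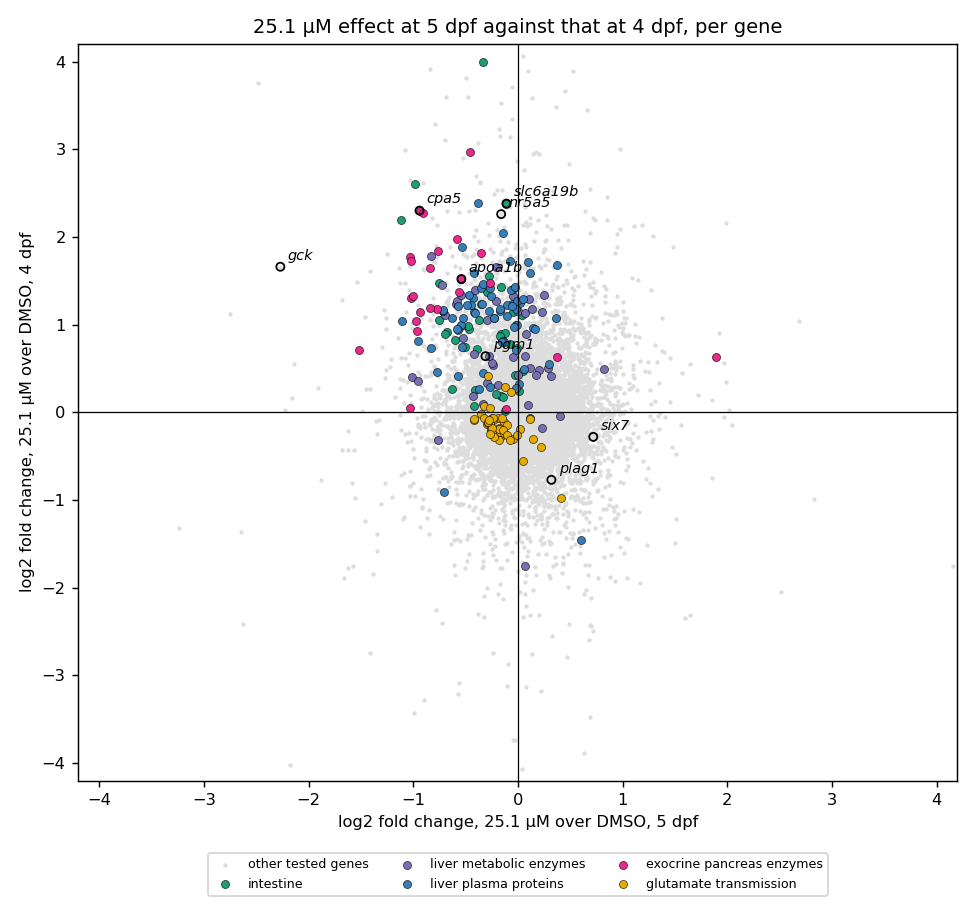
Log2 fold change of 25.1 µM over DMSO at 5 dpf (horizontal axis) and at 4 dpf (vertical axis) for each tested gene, with members of 4 organ lists and of the glutamate list in colour and 8 genes circled and named; 6 genes beyond 4.2 in size are not drawn. Organ genes lie mainly in the upper left quadrant (lower at 5 dpf, higher at 4 dpf), glutamate genes mainly in the lower left one.

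The genes were grouped into 33 lists of organs, cell types and pathways, written with earlier results of these data known. Another 2 lists, of hox genes, were added after values had been seen. The exocrine pancreas enzymes, both liver lists and the intestine list had medians below 0 at 5 dpf and above 0 at 4 dpf, and their distances between ages were the widest of the 33 lists. A list is described by its counts and median beside those of all genes, without a test of its own.

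**Figure D2:**
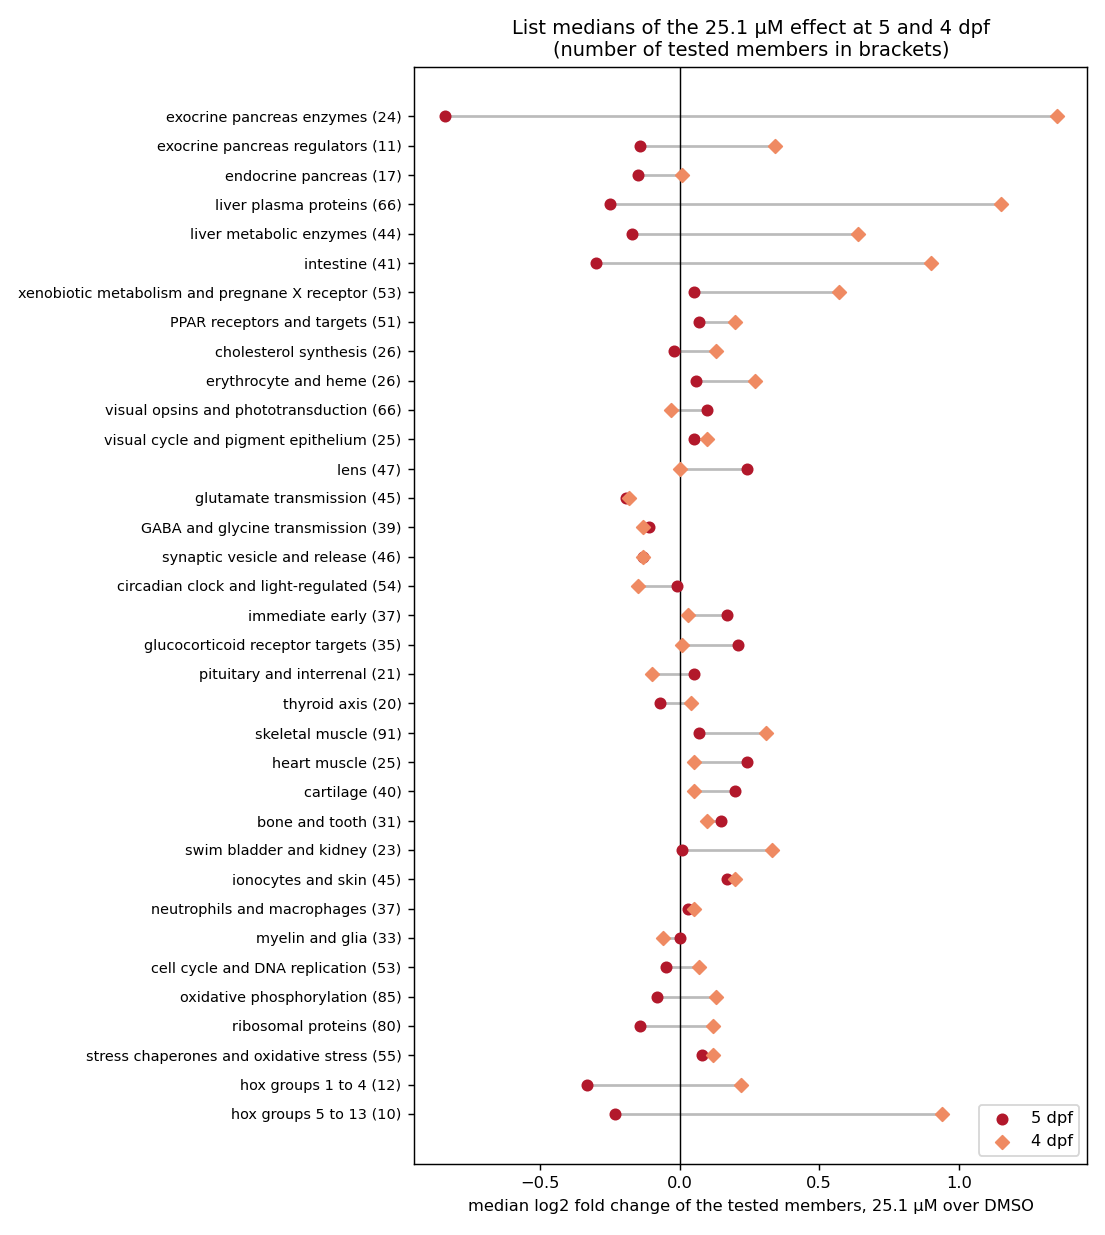
Median log2 fold change of 25.1 µM over DMSO over the tested members of each list, at 5 dpf (circles) and 4 dpf (diamonds), with the number of members in brackets. The exocrine pancreas enzymes are at -0.84 and 1.35, the liver plasma proteins at -0.25 and 1.15 and the intestine list at -0.3 and 0.9.

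Exocrine pancreas enzymes, the proteases, lipases and amylase released into the gut, were lower than in DMSO at 5 dpf and higher than in DMSO at 4 dpf in 22 of 24 tested members, against 22.6% of all genes. With the library letter as a block within age, an alternative chosen after seeing the data, 14 of the 24 members had this pair of signs. The list held 36 names, of which 26 were in the count table and 24 passed the filter on low counts. The median log2 fold change of the tested members was -0.84 at 5 dpf and 1.35 at 4 dpf, and the median difference between ages -2.12, where all genes had 0.01. Both exceptions were copies of 1 protease gene, prss60.2 (0.37 and 0.63) and prss60.3 (1.89 and 0.63), higher at both ages. How reads shared by near-identical protease genes were handled is not given in the sources used here, so values of single copies are uncertain. Of the list, 3 genes (12.5%, against 1.84% of all genes) had an unadjusted p under 0.05 for the difference between ages and 0 passed adjustment.

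The mean log2 CPM of the exocrine pancreas enzymes was 3.81 ± 1.46 at 25.1 µM and 4.91 ± 0.62 in DMSO at 5 dpf, and 1.38 ± 1.28 at 25.1 µM and 0.22 ± 1.06 in DMSO at 4 dpf (SD, n = 6 each). The differences were -1.1 ± 0.65 at 5 dpf and 1.16 ± 0.68 at 4 dpf (SE), and their difference -2.26 ± 0.94. The list stood 2.43 higher at 5 dpf than at 4 dpf in exposed larvae and 4.69 higher in DMSO larvae. The groups overlapped at both ages: at 5 dpf libraries D (1.3), C (3.21) and H (3.75) of the exposed group lay below all 6 DMSO libraries (3.81 to 5.68), while exposed library F (5.47) lay above 5 of the 6 DMSO libraries. At 4 dpf exposed libraries B (2.55), E (2.59) and H (2.38) lay above the highest DMSO library, E (2.09), and exposed library D (-0.29) lay below 4 of the 6 DMSO libraries. Without exposed libraries C and D at 5 dpf, left out after seeing the data, the 5 dpf difference was -0.33, and 19 of the 24 members were lower at 5 dpf and higher at 4 dpf. Without the libraries E of both groups at 4 dpf, also left out after seeing the data, the median over members was 2.11 at 4 dpf. In the first 32 and the last 16 columns of the count table the differences of the list mean were -0.6 and -2.11 at 5 dpf and 1.01 and 1.34 at 4 dpf. The last 16 columns were inferred to be a sequencing pool of their own, which no label states, and the first 32 may hold more than 1 pool. The last 16 columns held 2 exposed libraries and 1 DMSO library at 5 dpf and 2 exposed and 4 DMSO libraries at 4 dpf, so their values rest on few libraries.

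Among the named members, cpa5, a carboxypeptidase (chromosome 25, 18459924 to 18470696 on GRCz11), had 8.94, 76.8 and 290 CPM (lowest, median, highest of 6) at 25.1 µM and 49.4, 219 and 353 CPM in DMSO at 5 dpf. At 4 dpf it had 5.56, 16.8 and 51.9 CPM at 25.1 µM and 1.05, 3.5 and 13.7 CPM in DMSO. Libraries C and D were the lowest exposed ones at 5 dpf, and B, E and H the highest at 4 dpf, above every DMSO library. The log2 fold change of cpa5 was -0.94 ± 0.96 at 5 dpf and 2.3 ± 1.02 at 4 dpf (SE), a difference of -3.23 ± 1.4 (edgeR, unadjusted p = 0.0253, adjusted p = 1). Of the 6 most counted members only cpa5 had an unadjusted p under 0.05, and it is also in the neutrophil and macrophage list. The chymotrypsinogen gene ctrb1, the most counted of the list, had a difference of -2.55 ± 1.59 (edgeR, unadjusted p = 0.115). For ela2, amy2a, prss59.2 and zgc:112160 the differences were -2.01, -1.89, -2.32 and -2.06 (edgeR, unadjusted p = 0.212, 0.24, 0.16 and 0.201). Without DMSO library E at 4 dpf the differences of these 4 genes were -3.75, -3.31, -4.13 and -3.13. With each library left out in turn, their differences smallest in size were -1.69, -1.45, -1.73 and -1.65. Both copies of carboxyl ester lipase, a bile-salt dependent fat-digesting enzyme, were named after their values had been seen: cel.1 had -0.91 at 5 dpf and 2.27 at 4 dpf, and cel.2 had -0.46 and 2.97. The genes that control the exocrine lineage had smaller values. Of 11 tested exocrine pancreas regulators, 5 (45.5%) were lower at 5 dpf and higher at 4 dpf, against 22.6% of all genes, with medians of -0.14 and 0.34. The 3 most counted, xbp1, sox9b and foxa3, had -0.1, -0.04 and 0.01 at 5 dpf and -0.07, 0.12 and 0.23 at 4 dpf. Another regulator, hnf1ba, a transcription factor of pancreas, kidney and gut, was named after its values had been seen. It had -0.45 and 1.47 (difference -1.91 ± 0.76, edgeR, unadjusted p = 0.0151), the only regulator with an unadjusted p under 0.05.

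Liver plasma proteins, the apolipoproteins, clotting factors, complement and transport proteins that the liver secretes, were lower at 5 dpf and higher at 4 dpf in 53 of 66 tested members, again against 22.6% of all genes. Taken by age, 54 of 66 were below DMSO at 5 dpf (median log2 fold change -0.25) and 64 of 66 above DMSO at 4 dpf (median 1.15). The median difference between ages was -1.4, and it was below 0 for 64 members. At an unadjusted p under 0.05 there were 8 members (12.1%, against 1.84% of all genes), all with a lower effect at 5 dpf. They were f9a and f9b, copies of clotting factor IX, c8a of the complement membrane attack complex, the protease inhibitor gene serpina1l, the copper carrier gene cp, the main HDL protein gene apoa1b, the thyroid hormone carrier gene ttr and the vitronectin gene vtna.

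The mean log2 CPM of the liver plasma proteins was 4.77 ± 0.58 at 25.1 µM and 5.09 ± 0.29 in DMSO at 5 dpf, and 3.01 ± 0.63 at 25.1 µM and 1.88 ± 0.89 in DMSO at 4 dpf (SD, n = 6 each). The 4 dpf difference of 1.13 ± 0.45 (SE) was the larger one relative to its SE, and the 5 dpf difference was -0.32 ± 0.26. Exposed libraries C (4.16) and D (3.97) were the only 2 below all DMSO libraries (4.74 to 5.51) at 5 dpf, and the other exposed libraries, 4.83 to 5.4, lay within the DMSO range. At 4 dpf exposed libraries B (3.39), C (3.48) and E (3.61) lay above the highest DMSO library, E (3.34), while the other 5 DMSO libraries lay between 1.2 and 2.57. Without libraries C and D of the exposed group at 5 dpf, a choice made after seeing the data, 29 of the 66 members were lower at 5 dpf and higher at 4 dpf and the 5 dpf median was 0.02.

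The most counted plasma protein gene, apoa1b (chromosome 15, 102925 to 108415), had 1370, 3120 and 4640 CPM (lowest, median, highest) at 25.1 µM and 2970, 4060 and 5410 CPM in DMSO at 5 dpf. At 4 dpf it had 376, 1020 and 1550 CPM at 25.1 µM and 127, 269 and 775 CPM in DMSO. At 5 dpf exposed libraries C and D lay below the DMSO range, and at 4 dpf 4 of 6 exposed libraries lay above it. Its log2 fold changes were -0.54 ± 0.67 at 5 dpf and 1.52 ± 0.68 at 4 dpf (SE), with a difference of -2.06 ± 0.95 (edgeR, unadjusted p = 0.0355, adjusted p = 1). The others named by level were fetub (-0.83 and 0.73 at 5 and 4 dpf), apobb.1, the main structural protein of yolk- and liver-derived lipoproteins (-0.57 and 0.94), the fibronectin gene fn1b (-0.37 and 0.27), the transferrin gene tfa (-0.05 and 1.41) and apoa1a (-0.72 and 1.15). None of these 5 reached an unadjusted p of 0.05 for the difference between ages. Without DMSO library E at 4 dpf the difference was -2.56 for fetub, against -1.56, and -1.1 for fn1b, against -0.64. With each library left out in turn, the differences smallest in size were -1.33 for fetub and -0.49 for fn1b. The liver fatty acid binding protein gene fabp10a did not share the 5 dpf sign, with 0.1 ± 0.73 at 5 dpf and 1.71 ± 0.77 at 4 dpf, and its groups overlapped at both ages.

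Liver metabolic enzymes had smaller medians than the secreted proteins at both ages. At 5 dpf 26 of 44 tested members were below DMSO (median -0.17), while at 4 dpf 40 of 44 were above it (median 0.64), and 25 of 44 combined both signs. Over all genes, 48.6% were above DMSO at 4 dpf and 22.6% combined both signs in this way. Without exposed libraries C and D at 5 dpf, the 5 dpf difference of the list mean was 0.03, against -0.2 with them. At an unadjusted p under 0.05 there were 9 members (20.5%, against 1.84% of all genes), of which 8 had a lower effect at 5 dpf. Among these 8 were the glycogen phosphorylase gene pygl, hpda and tat of tyrosine breakdown, cyp7a1, the first enzyme of the main bile acid pathway, hao1 and uroc1. The list also placed gc among these 8, although its product is a secreted vitamin D carrier and not an enzyme. The remaining gene of the 9, arg1, had 0.07 at 5 dpf and -1.75 at 4 dpf.

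The intestine list, of brush border enzymes, nutrient carriers and gut hormones, had 37 of 41 tested members lower at 5 dpf and higher at 4 dpf, against 22.6% of all genes. With the library letter as a block within age the list had 24 such members of 41. Its median was -0.3 at 5 dpf and 0.9 at 4 dpf, and 40 of 41 members had a lower effect at 5 dpf. The exception was ccka, which encodes the gut and brain peptide cholecystokinin (0.12 and -0.07). At an unadjusted p under 0.05 there were 2 members (4.88%, against 1.84% of all genes), slc6a19b, a brush border carrier of neutral amino acids, and amn, a partner of the vitamin B12 receptor. The list mean was 2.91 ± 0.64 at 25.1 µM and 3.33 ± 0.29 in DMSO at 5 dpf, and 0.75 ± 0.65 at 25.1 µM and 0.14 ± 0.66 in DMSO at 4 dpf (log2 CPM, SD, n = 6 each). The difference between ages was -1.03 ± 0.48 (SE). Of the 6 most counted members, krt92, a keratin gene, had -0.17 and 0.87, and chia.2, a chitinase gene, -0.15 and 0.83. The actin-bundling villin gene vil1 (-0.16 and 0.19), the goblet cell gene agr2 (-0.12 and 0.02) and cubn, the vitamin B12 receptor gene (0.04 and 1.11), completed them with apoa1a. With each library left out in turn, the difference between ages ran from -2.04 (without DMSO library E at 4 dpf) to -0.34 (without exposed library H at 4 dpf) for chia.2, against -0.98. That of vil1 ran from -0.51 to -0.1, against -0.35. It was -0.19 without exposed library C at 5 dpf and -0.1 without exposed library E at 4 dpf. That of cubn ran from -1.8 (without DMSO library E at 4 dpf) to -0.85, against -1.06. That of agr2 ran from -0.36 to 0.17, turning in sign without DMSO library I at 5 dpf. Without libraries C and D at 25.1 µM and 5 dpf, 25 members had the opposite signs and the 5 dpf median was -0.05.

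**Figure D3:**
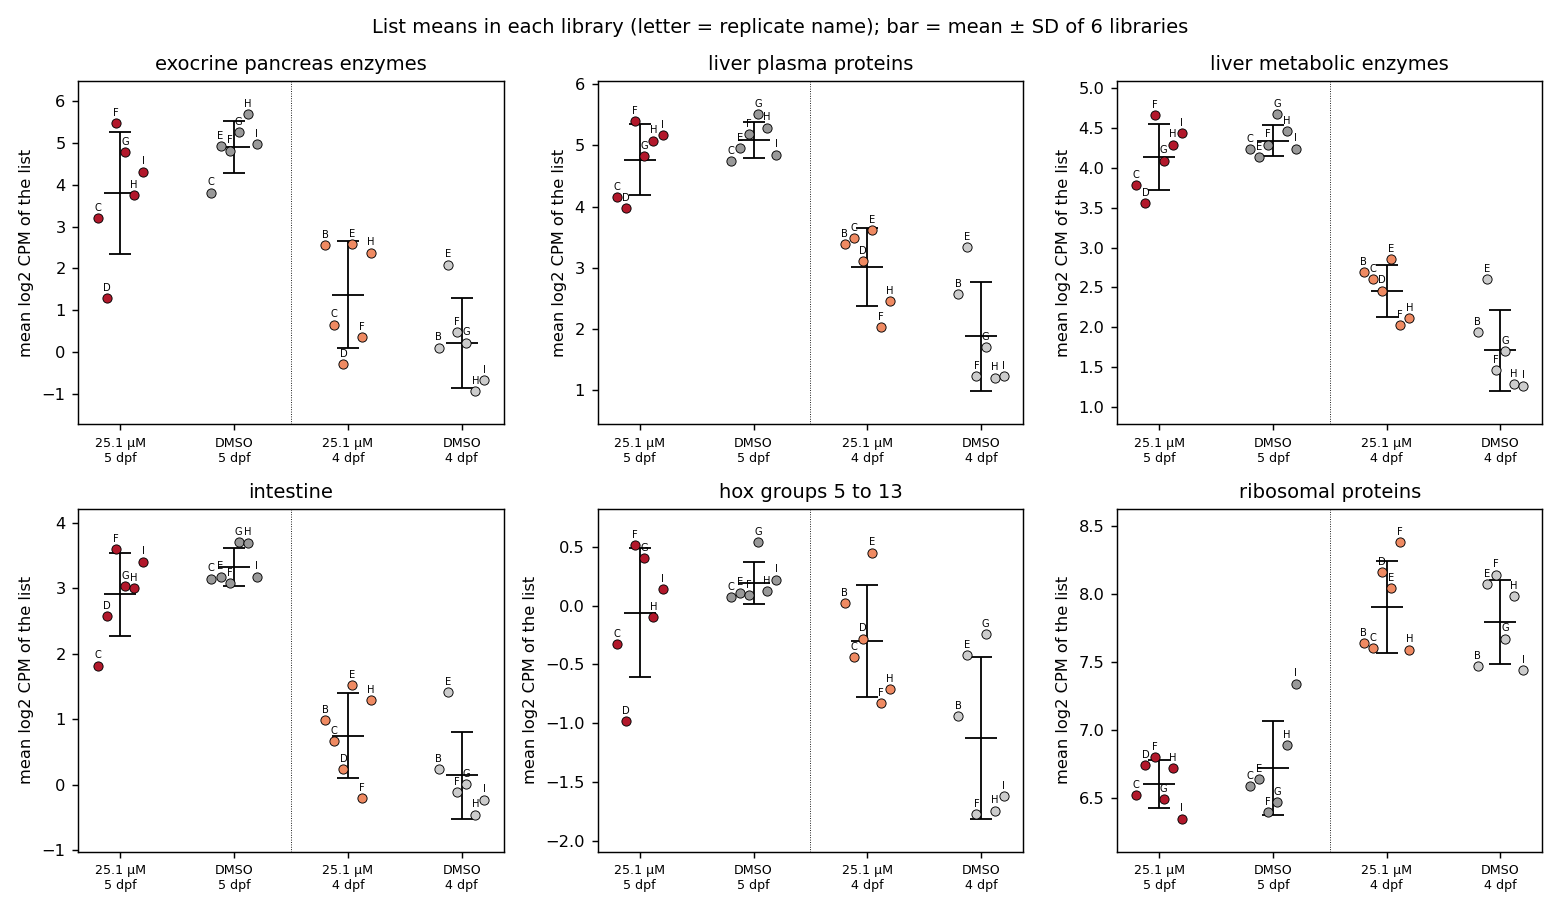
Mean log2 CPM of 6 gene lists in each library (points, with the library's letter), in 25.1 µM and DMSO at 5 dpf and then at 4 dpf; bars are the mean ± SD of 6 libraries. Libraries C and D are the 2 lowest exposed libraries at 5 dpf in both liver lists, and library E is the highest of either group at 4 dpf in the exocrine, liver and intestine lists.

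Genes expressed along the body axis had the same signs as these organs. Hox genes are expressed in nested domains along the body, and paralogue groups from 5 upward are expressed mainly behind the head. Of 25 hox genes of groups 5 to 13 in the table, 10 passed the filter on low counts. Of these 10, 8 were lower at 5 dpf and higher at 4 dpf, against 22.6% of all genes, with medians of -0.23 and 0.94. Without exposed libraries C and D at 5 dpf, 5 of the 10 had this pair of signs and the 5 dpf median was -0.02. This list was chosen after values had been seen. The mean of hox groups 5 to 13 was -0.06 ± 0.55 at 25.1 µM and 0.19 ± 0.18 in DMSO at 5 dpf, and -0.3 ± 0.47 at 25.1 µM and -1.12 ± 0.69 in DMSO at 4 dpf (log2 CPM, SD, n = 6 each). Single libraries ran from -0.98 to 0.51 in exposed and 0.07 to 0.54 in DMSO libraries at 5 dpf, and from -0.83 to 0.45 in exposed and -1.77 to -0.24 in DMSO libraries at 4 dpf. Between the 4 pairs of exposed and DMSO libraries that share a letter at 4 dpf, B, E, F and H, the differences were 0.96, 0.86, 0.94 and 1.03. Between the 5 such pairs at 5 dpf, C, F, G, H and I, they were -0.4, 0.42, -0.13, -0.21 and -0.08. The letters mark no stated pairing, and libraries without a partner drop out. The exocrine pancreas, liver plasma protein and intestine lists were less even over the pairs B, E, F and H at 4 dpf. The exocrine pancreas enzymes differed by 2.44, 0.5, -0.12 and 3.3, and the liver plasma proteins by 0.81, 0.27, 0.81 and 1.25. For the intestine list the differences were 0.75, 0.11, -0.1 and 1.75. Those of the swim bladder and kidney list were 0.42, 0.34, 0.32 and 0.49. By columns of the count table, hox groups 5 to 13 were less even at 4 dpf than the liver plasma proteins. The hox difference was 0.43 in the last 16 columns and 1.2 in the columns before them. For the liver plasma proteins these values were 1.1 and 1.14. In hox groups 5 to 13, as in the liver lists, exposed libraries D and C were the lowest at 5 dpf and exposed library E the highest at 4 dpf. The part of these posterior levels in the organ differences was not tested.

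Of single hox genes, hoxb5b (chromosome 12, 27129659 to 27131736) had 1.8, 3.84 and 5.39 CPM (lowest, median, highest) at 25.1 µM and 3.57, 4.7 and 6.66 CPM in DMSO at 5 dpf. At 4 dpf it had 2.27, 2.74 and 3.86 CPM at 25.1 µM and 0.474, 1.27 and 2.79 CPM in DMSO, and 3 of 6 exposed libraries lay above all DMSO libraries. The difference between ages was -1.37 ± 0.46 (SE; edgeR, unadjusted p = 0.00421, adjusted p = 1). With hoxb8a (-0.38 at 5 dpf and 1.95 at 4 dpf), hoxb5a (-0.24 and 0.76), hoxa5a (-0.41 and 1.51) and hoxb6a (-0.22 and 1.07), 5 of the 10 genes had an unadjusted p under 0.05, against 1.84% of all genes. Their levels were low: in DMSO at 4 dpf the means were 0.354, 5.1, 0.242 and 1.49 CPM for hoxb8a, hoxb5a, hoxa5a and hoxb6a. Over the 10 genes the average log2 CPM ran from -1.66 (hoxa11b) to 2.78 (hoxb5a). Groups 1 to 4, which are expressed in the hindbrain, had medians of -0.33 at 5 dpf and 0.22 at 4 dpf over 12 tested genes. Of these 12, 8 combined both signs, against 22.6% of all genes.

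**Figure D4:**
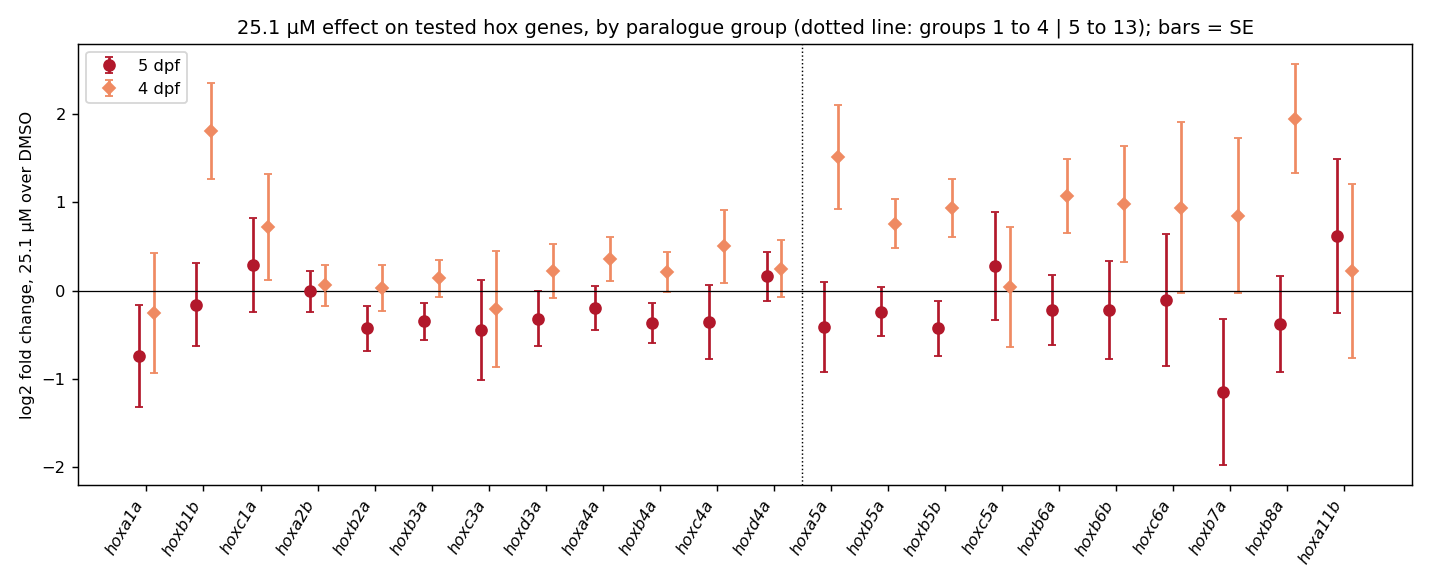
Log2 fold change of 25.1 µM over DMSO with its SE for each tested hox gene, ordered by paralogue group, at 5 dpf (circles) and 4 dpf (diamonds). Of the 10 genes right of the dotted line, 10 are above 0 at 4 dpf and 8 below 0 at 5 dpf.

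Muscle, kidney and swim bladder lists, which also belong in part to the trunk, were higher at 4 dpf without being lower at 5 dpf. In skeletal muscle 83 of 91 members, against 48.6% of all genes, were above DMSO at 4 dpf (median 0.31) and 31 below it at 5 dpf (median 0.07). The groups overlapped at 4 dpf, with 0 of 6 exposed libraries above all DMSO libraries in the list mean, whose difference was 0.68 in the first 32 and 0.02 in the last 16 columns of the count table. The list held 6 members (6.59%, against 1.84% of all genes) with an unadjusted p under 0.05 for the difference, all with a lower effect at 5 dpf. Among them was the skeletal actin gene acta1b (-0.31 and 0.62, edgeR, unadjusted p = 0.0093). The swim bladder and kidney list had medians of 0.01 at 5 dpf and 0.33 at 4 dpf. Its mean differed by -0.03 ± 0.09 (SE) at 5 dpf and by 0.37 ± 0.11 at 4 dpf, when 3 of 6 exposed libraries lay above all DMSO libraries. In the first 32 and the last 16 columns the 4 dpf difference of this mean was 0.49 and 0.21. Targets of the peroxisome proliferator-activated receptors (PPARs), the fatty acid sensors that many PFAS activate in mammals, were likewise higher at 4 dpf in 39 of 51 members (median 0.2) and not lower at 5 dpf (32 of 51 higher, median 0.07). Over all genes, 48.6% were higher at 4 dpf and 52.2% at 5 dpf. The mean of the PPAR receptors and targets was 2.7 ± 0.06 at 25.1 µM and 2.48 ± 0.12 in DMSO at 4 dpf (log2 CPM, SD, n = 6 each), with 4 exposed libraries above all DMSO libraries. Of the 51 members, 17 (33.3%) were lower at 5 dpf and higher at 4 dpf, against 22.6% of all genes. The 3 most counted members, acadvl, fabp7a and hadhb, had 0.07, 0.28 and -0.02 at 5 dpf and 0.25, -0.1 and 0.32 at 4 dpf. The fatty acid oxidation genes acaa2, eci2 and ehhadh were picked after their values had been seen and do not stand for the list. They were lower at 5 dpf (-0.43, -0.31 and -0.49) and higher at 4 dpf (0.35, 0.4 and 0.76).

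The genes named for being lower at 5 dpf and higher at 4 dpf with a small p were nr5a5, hoxb5b, eps8l3b, slc6a19b, gck, aspg, cyp2aa1, pou2f3 and pgm1. The orphan nuclear receptor gene nr5a5 (chromosome 3, 53457192 to 53465250) had a larger log2 fold change at 4 dpf than at 5 dpf. It had 4.95, 12.6 and 19 CPM (lowest, median, highest) at 25.1 µM and 7.21, 12.8 and 21.7 CPM in DMSO at 5 dpf, and 1.28, 3.58 and 4.49 CPM at 25.1 µM and 0.126, 0.62 and 1.43 CPM in DMSO at 4 dpf. At 4 dpf 5 of 6 exposed libraries lay above all DMSO libraries, the exception being library F. The log2 fold changes were -0.16 ± 0.5 and 2.26 ± 0.6 (SE), and the difference -2.42 ± 0.78 (edgeR, unadjusted p = 0.00339, adjusted p = 1).

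The glucokinase gene gck, whose enzyme traps glucose in liver cells, had the largest opposite effects of these genes. At 5 dpf the exposed libraries had 1.36, 1.67, 2.76, 3.58, 9.53 and 17.4 CPM, against 9.73, 15.5, 18.8, 22.1, 42.5 and 65.1 CPM in DMSO. At 4 dpf the exposed libraries had 0.62, 0.955, 2.22, 20.7, 31.4 and 32.2 CPM, against 0.295, 0.427, 0.595, 4.05, 7.6 and 15.4 CPM in DMSO. So 5 of 6 exposed libraries lay below all DMSO libraries at 5 dpf, the exception being H, whereas at 4 dpf gck had both low and high libraries in each group. The log2 fold changes were -2.27 ± 0.96 at 5 dpf and 1.66 ± 0.96 at 4 dpf (SE), with a difference of -3.93 ± 1.36 (edgeR, unadjusted p = 0.00564, adjusted p = 1). Its place is chromosome 8, 40476811 to 40490594.

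The remaining named genes of this direction were at lower levels or had smaller effects. The asparaginase gene aspg had -0.4 ± 0.17 at 5 dpf, with 5 of 6 exposed libraries below all DMSO libraries, and 0.28 ± 0.17 at 4 dpf (SE). In the phosphoglucomutase gene pgm1, of glycogen metabolism, the values were -0.31 ± 0.25 and 0.64 ± 0.25. The cytochrome P450 gene cyp2aa1 had -0.55 ± 0.42 and 1.2 ± 0.45, and eps8l3b, of a family of actin regulators, -0.77 ± 0.57 and 1.77 ± 0.64. The values of slc6a19b were -0.11 ± 0.47 and 2.38 ± 0.71. At 4 dpf this gene was near the floor, with 0 to 0.34 CPM in DMSO and 0.0388 to 1.18 CPM in exposed libraries. In cyp2aa1, pgm1, pou2f3 and slc6a19b 5 of 6 exposed libraries, and in eps8l3b 4 of 6, lay above all DMSO libraries at 4 dpf. The transcription factor gene pou2f3 specifies chemosensory tuft-like cells in mammals. Its levels were higher at 4 dpf than at 5 dpf, unlike the means of the exocrine enzyme, liver and intestine lists. The medians of pou2f3 were 2.39 and 3.5 CPM in exposed and DMSO larvae at 5 dpf and 6.07 and 4.05 CPM at 4 dpf.

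Of the opposite pattern, higher at 5 dpf and lower at 4 dpf, six7 had the smallest p of all genes tested. Six7 is a transcription factor that in zebrafish is needed for green-sensitive cones. At 5 dpf six7 (chromosome 7, 7401692 to 7420302) had 43.1, 53, 53.9, 61.3, 66.3 and 93.4 CPM at 25.1 µM, against 30.1, 32.4, 34.3, 37.5, 38.7 and 51.6 CPM in DMSO. At 4 dpf it had 28.8, 36.5, 38.1, 39.5, 42.5 and 45.1 CPM at 25.1 µM, against 37.2, 38, 45, 49.1, 51.4 and 58.9 CPM in DMSO. At 5 dpf 5 of 6 exposed libraries lay above all DMSO libraries, the exception being C, while at 4 dpf the groups overlapped and 2 exposed libraries, B and C, lay below all DMSO libraries. The log2 fold changes of six7 were 0.72 ± 0.16 at 5 dpf and -0.28 ± 0.16 at 4 dpf (SE), with a difference of 1 ± 0.23 (edgeR, unadjusted p = 7.98e-05, adjusted p = 1). The adjusted p of six7 was 0.309 with DESeq2 and 0.258 with limma on the deposited log2 values.

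The other 9 named genes of this direction had differences between 0.5 and 1.28. In the zinc finger gene plag1 the exposed libraries had 4.89, 5.63 and 6.6 CPM (lowest, median, highest) and the DMSO libraries 3.49, 4.32 and 6.44 CPM at 5 dpf, and at 4 dpf 1.55, 2.49 and 3.48 CPM and 2.57, 4.53 and 5.37 CPM. Its log2 fold changes were 0.32 ± 0.24 and -0.77 ± 0.25 (SE). The scaffold gene sash1a, with 0.19 ± 0.13 and -0.3 ± 0.13, had 5 of 6 exposed libraries above all DMSO libraries at 5 dpf and 4 of 6 below all DMSO libraries at 4 dpf. In foxj1a, the main switch for motile cilia, the counts were 4 above at 5 dpf and 4 below at 4 dpf, with 0.3 ± 0.23 and -0.53 ± 0.24. The basement membrane collagen gene col4a4 had 0.4 ± 0.23 and -0.57 ± 0.24, and acsl4b, an activating enzyme of long polyunsaturated fatty acids, 0.33 ± 0.18 and -0.43 ± 0.19. The Hedgehog pathway transcription factor gene gli3 had 0.1 ± 0.19 and -0.56 ± 0.2, etnk1, of phosphatidylethanolamine synthesis, 0.13 ± 0.16 and -0.42 ± 0.16, mfap3l 0.16 ± 0.13 and -0.34 ± 0.13, and abraa, an actin-binding protein gene, 0.37 ± 0.33 and -0.91 ± 0.37.

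**Figure D5:**
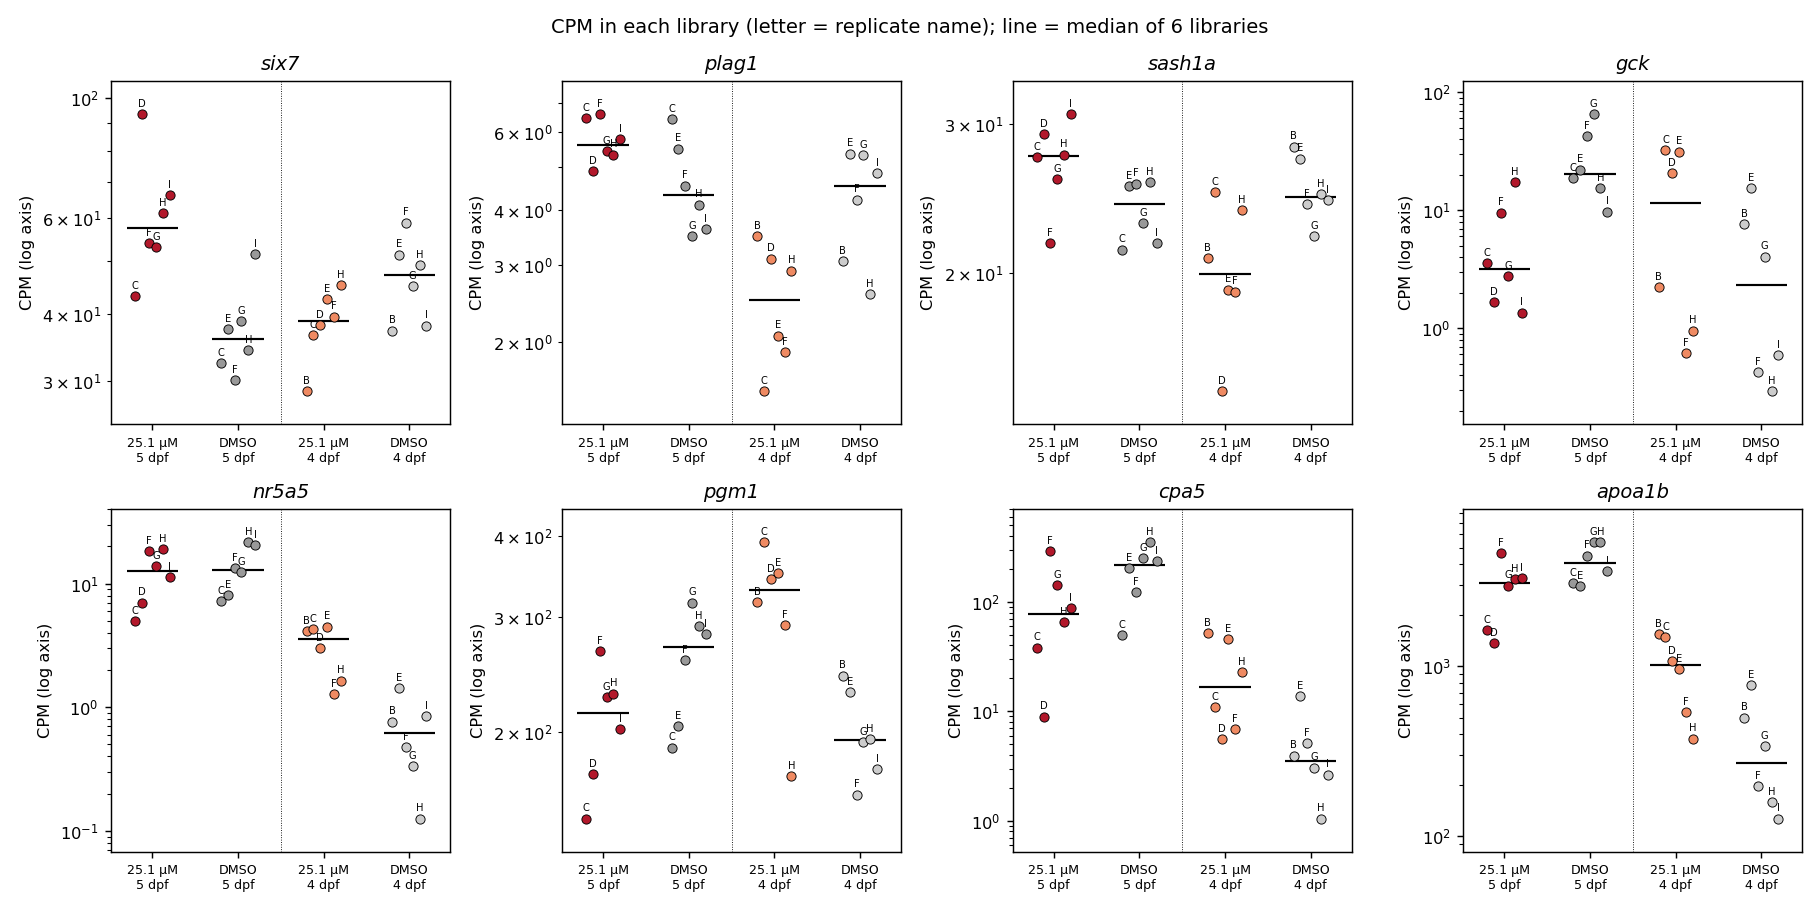
CPM on a log axis of 8 genes in each library (points, with the library's letter), in 25.1 µM and DMSO at 5 dpf and then at 4 dpf; lines are medians of 6 libraries. For six7, plag1 and sash1a the exposed median is above DMSO at 5 dpf and below it at 4 dpf; for gck, nr5a5, pgm1, cpa5 and apoa1b it is below DMSO at 5 dpf and above it at 4 dpf.

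Among lists of the eye and of other head tissues, the opsin list and the pituitary and interrenal list had medians of this second pair of signs. In the pituitary and interrenal list, of 41 names, 8 of 21 tested members (38.1%) combined these signs, against 26.2% of all genes, with medians of 0.05 and -0.1. Its list mean did not have these signs, differing by 0.01 ± 0.08 (SE) at 5 dpf and by 0.04 ± 0.17 at 4 dpf. Visual opsins and phototransduction genes were higher at 5 dpf and lower at 4 dpf in 27 of 66 members (40.9%), against 26.2% of all genes, with medians of 0.1 and -0.03. Among the most counted of them, opn1sw1 and gnat2 had differences between ages of -0.35 ± 0.36 and -0.05 ± 0.25 (SE), and six7 is itself a member of this list. Lens genes combined these signs in 17 of 47 members (medians 0.24 and 0), cartilage genes in 16 of 40 (0.2 and 0.05), glucocorticoid receptor targets in 12 of 35 (0.21 and 0.01) and circadian and light-regulated genes in 21 of 54 (-0.01 and -0.15). The list mean of the glucocorticoid receptor targets differed by 0.19 ± 0.05 (SE) at 5 dpf and by 0.08 ± 0.11 at 4 dpf. In the first 32 and the last 16 columns the mean of the cartilage genes differed by 0.25 and -0.12 at 5 dpf and by 0.28 and -0.2 at 4 dpf, and that of the circadian genes by -0.19 and 0.42 at 5 dpf and by -0.27 and -0.03 at 4 dpf.

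Neurotransmission lists had medians below 0 at both ages over all libraries. Their list means, however, were below DMSO only in the first 32 columns of the count table and above it in the last 16. Of 45 glutamate transmission genes, 39 were below DMSO at 5 dpf and 40 at 4 dpf, with medians of -0.19 and -0.18 and a median difference between ages of -0.03. Of all genes, 52.2% were above DMSO at 5 dpf and 48.6% at 4 dpf. For 39 GABA and glycine genes the medians were -0.11 and -0.13, and for 46 genes of the synaptic vesicle -0.13 and -0.13. The list mean of the glutamate genes differed by -0.27 at 5 dpf and -0.33 at 4 dpf in the first 32 columns, and by 0.09 and 0.13 in the last 16. For the GABA and glycine genes these differences were -0.27 and -0.32 in the first 32 columns and 0.2 and 0.31 in the last 16, and for the synaptic vesicle -0.16 and -0.33, and 0.13 and 0.17. None of the genes of these 3 lists had an unadjusted p under 0.05 for the difference between ages by edgeR, against 1.84% of all genes. Of the ribosomal protein genes, 53 of 80 were lower at 5 dpf and higher at 4 dpf, against 22.6% of all genes, with medians of -0.14 and 0.12. Oxidative phosphorylation genes had 46 of 85 such members and medians of -0.08 and 0.13. In the last 16 columns the means of both lists were below DMSO at both ages. The ribosomal mean differed there by -0.09 (5 dpf) and -0.19 (4 dpf), and by -0.1 and 0.25 in the first 32 columns. For oxidative phosphorylation the differences were -0.03 and -0.13 in the last 16 columns and -0.01 and 0.24 in the first 32.

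The 7.87 and 14 µM groups share their DMSO libraries with the 25.1 µM group, so their values are given side by side only. The mean of the exocrine pancreas enzymes differed from DMSO by -2.54, -1.8 and -1.1 at 5 dpf and by 0.04, 0.05 and 1.16 at 4 dpf, at 7.87, 14 and 25.1 µM. For the liver plasma proteins the differences were -0.91, -0.38 and -0.32 at 5 dpf and 0.34, 0.43 and 1.13 at 4 dpf, and for the intestine list -1.15, -0.77 and -0.43 at 5 dpf and 0.11, 0.09 and 0.61 at 4 dpf, in the same order of concentrations. At 5 dpf the mean of each of these lists was below DMSO at every concentration, and furthest below at 7.87 µM. At 4 dpf each was furthest above DMSO at 25.1 µM.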

How the data were processed

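Expected counts (estimated reads per gene, not normalized) and log2 values after quantile normalization had been made and deposited by the authors. Per the submitters' processing notes, STAR 2.5.3a, Partek 8.0.19.0428 and the build GRCz11 were used; which step each tool ran, the annotation, strand and the handling of shared reads are not given in the sources used here. Expected counts were rounded. Genes were kept with filterByExpr (20723 of 25445), all 48 libraries were scaled by TMM and fitted in edgeR 4.0.16 (R 4.3.3) with 1 mean for each of 8 groups (quasi-likelihood F test, Benjamini-Hochberg adjustment over all genes, threshold 0.05), and the contrast was (25.1 µM minus DMSO at 5 dpf) minus (25.1 µM minus DMSO at 4 dpf). The SE is the log2 fold change divided by the square root of F, in size. List means are over log2 CPM with a prior count of 2, and the SE of a difference between group means comes from the SDs. CPM values are TMM-scaled. The biological coefficient of variation was 0.361. No 2 libraries of a group agreed within sampling noise.

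The members and lists were chosen with earlier results of these data known. Of 1516 list names, 1389 matched by symbol and 23 by a RefSeq synonym. Among genes with opposite signs, a symbol that is no clone name and a mean level of log2 CPM 1 or more, the 10 of smallest p in each direction are named, and the 3 most counted members of a list, or 6 for 3 organ lists; others are marked in the text, and some genes the rule names are not reported here. Clone-like symbols with 4 capital letters were left out as clone names after the values had been seen.

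The alternatives were DESeq2 1.42.0, limma 3.58.1 on the deposited log2 values, other scalings and filters, fits on 24 libraries, the letter or a column block as a term, a robust fit, other prior counts and each library left out. The column block, the last 16 columns of the count table, was inferred as a sequencing pool. The letters marked no stated pairing. Same-letter libraries correlated by 0.22 to 0.46 at 4 dpf and by -0.23 to 0.66 at 5 dpf in their deviations from group means. The fits were tested on simulated data. Promoter sequences were not used here.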

Additional observations from a re-analysis of the deposited data

Results flagged for a closer look

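Of 284 groups of 6 values checked (list means, and CPM of the named genes with 0.1 added before log2), 16 held a library whose gap to the nearest of the others exceeded 0.625 of the group's range; chance gives about 1 in 20 groups. DMSO library E at 4 dpf stood apart in 3: its intestine mean was 1.41 log2 CPM against -0.46 to 0.24 in the other 5, its ela2 level 49.1 CPM against 1.18 to 4.6, and its mean of circadian clock and light-regulated genes 4.15 against 4.4 to 4.52. At 5 dpf exposed library D was low in hox groups 1 to 4 (0.71 against 1.15 to 1.37) and exposed library C was low in vil1 (46.5 CPM against 108 to 159), and DMSO library G was high in hox groups 5 to 13 (0.54 against 0.07 to 0.22).

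At 4 dpf exposed library H was low in pgm1 (171 CPM against 292 to 392). Exposed library F was low in slc6a19b (0.0388 CPM against 0.62 to 1.18) and high in the means of visual opsins and phototransduction (5.94 against 5.28 to 5.5) and immediate early genes (3.94 against 3.08 to 3.39). Exposed library C was low in acsl4b (2.69 CPM against 3.46 to 3.81) and exposed library E in abraa (0.505 against 0.981 to 1.27). DMSO library F was high in the mean of myelin and glia genes (4 against 3.62 to 3.73), and DMSO library G was low in aspg (8.71 CPM against 13.3 to 16.6). At 5 dpf exposed library G was low in the cartilage mean (5.11 against 5.68 to 6.01), and DMSO library I was high in agr2 (33.7 CPM against 12.8 to 15.2).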

How the results depend on the processing

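No gene passed adjustment between ages under any alternative run, and at 4 dpf none did either; at 5 dpf 1 gene did with DESeq2 and 1 in the fit on 24 libraries, si:dkey-61n16.5 in both. Counts at an unadjusted p under 0.05 depended most on the settings. Between ages they were 864 without a filter and 941 on 24 libraries, against 381. At 5 dpf they were 233 with DESeq2, 253 with limma, 529 without a filter, 498 on 24 libraries and 283 with the replicate block within age, against 139. At 4 dpf they were 1035 without a filter and 1154 on 24 libraries, against 540. The genes tested were 25445 without a filter, 19883 on 24 libraries and 20723 in the main fit. The 1154 genes at 4 dpf were thus above 5% of those tested, the share this threshold passes where no gene differs. With each library left out in turn the counts ran from 101 to 311 at 5 dpf, highest without exposed library G (311) and without DMSO library C (273). At 4 dpf they ran from 410 to 859, highest without exposed library H. The replicate block over all libraries gave 443 genes between ages and no call. With the replicate block within age, chosen after seeing the data, 14 exocrine pancreas members and 24 intestine members were lower at 5 dpf and higher at 4 dpf, against 22 and 37. Without exposed libraries C and D at 5 dpf, 29 liver plasma members were, against 53, and the mean 5 dpf differences became -0.33 (exocrine), 0.03 (liver plasma), 0.03 (liver metabolic) and -0.07 (intestine), the 4 dpf ones being untouched. Without the libraries E of both groups at 4 dpf, the median over exocrine pancreas members was 2.11 at 4 dpf and -2.88 between ages, against 1.35 and -2.12. The difference of agr2 between ages turned to 0.16 with the column block and 0.17 with the replicate block within age, and ran from -0.36 to 0.17 with each library left out. The cause of these shifts was not tested. The mean difference between ages of the exocrine pancreas enzymes kept its sign with each library left out (-2.63 to -1.75), as did that of the liver plasma proteins (-1.75 to -1.3), the intestine list (-1.29 to -0.82) and six7 (0.85 to 1.12). The lists were written with earlier results of these data known, and six7 was picked by its p in these same libraries. A kept sign is therefore no independent support. Within the first 32 and last 16 columns the liver plasma proteins differed by -0.25 and -0.39 at 5 dpf and by 1.14 and 1.1 at 4 dpf. In the other lists, 14 comparisons of a mean difference under an alternative with the main one moved by more than the list's spread. A single list can supply several of these comparisons. Single genes were compared only by sign and by adjusted p, so a shift in size was not judged for them. Pools of 15 heads and 6 libraries a group set the precision. Wide errors were found at high and at low counts. The SE of the difference between ages was 1.59 for ctrb1, 1.33 for hoxa11b and 0.4 for hoxb5a.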

Other observations

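Some regulators of the hindbrain, spinal cord and neural crest had the same pair of signs as the organ genes; they were picked after their values had been seen and support nothing on their own. Phox2bb, a transcription factor of hindbrain autonomic neurons, had -0.45 ± 0.24 at 5 dpf and 0.43 ± 0.24 at 4 dpf (log2 fold change, SE). Tlx2, of the same lineages, had -0.42 ± 0.2 and 0.2 ± 0.2, the interneuron gene dbx1b -0.48 ± 0.25 and 0.39 ± 0.25, and gbx1 -0.37 ± 0.24 and 0.54 ± 0.24. The motor neuron gene isl2a had -0.36 ± 0.2 and 0.34 ± 0.2, the neural crest gene foxd3 -0.42 ± 0.26 and 0.44 ± 0.26, and the intermediate filament gene prph, expressed in peripheral and motor neurons, -0.27 ± 0.2 and 0.33 ± 0.21. Their unadjusted p for the difference between ages ran from 0.00955 (gbx1) to 0.0453 (prph) by edgeR, with an adjusted p of 1.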
